A study of Medicago truncatula with 9 samples.

Results

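Ribosomal protein genes of the cytosol, the mitochondria and the plastids were examined in mature seeds of Medicago truncatula, a model legume. A locus was a member when the description deposited with it named a ribosomal protein or a ribosomal subunit protein, and kinases and methyltransferases were left out. This gave 341 of 36695 loci. Of these, 299 reached at least 1 FPKM in at least 3 libraries and were tested, and 42 did not, including 2 listed at 0 in every library. FPKM corrects fragment numbers for transcript length and for the size of the library, so levels of different genes can be set side by side.

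The samples were seeds of the wild type R108 and of NF10440 (hsfa9-1) and NF13157 (hsfa9-2), lines with Tnt1 retrotransposon insertions that share the R108 background. Each genotype had 3 libraries, and each library came from 50 mature seeds of different plants. Culture room temperatures were 20 °C and 19 °C, the day length was 16 h, pods were dried at a humidity of 43%, and storage was at 20 °C. HSFA9, named for heat stress transcription factors, is the gene the lines are named after. No locus is described by that name, so the genotype labels could not be compared with its level. Each mutant is 1 insertion line, both are compared with the same R108 libraries, and no complemented line was analysed here.

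A ribosome joins a small and a large subunit, each made of ribosomal RNA and many proteins. The cytosolic ribosome of plants has a 40S and a 60S subunit, and its proteins are encoded in the nucleus, mostly by several gene copies each. Mitochondria and plastids have ribosomes of bacterial type with 30S-like and 50S-like subunits. Most of their proteins are nuclear products that are imported, and the others are encoded in the organelle's own genome. A dry seed stores messenger RNA and ribosomes, and both are used when germination begins.

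Summed FPKM lay between 922800.58 and 981284.54 per library, and the absolute read depth is unknown. On the leading principal component, hsfa9-2 replicate 1 stood at 32.4, apart from 42.5 and 41.9 in the other hsfa9-2 libraries. Markers of seed tissues were summed as a check on tissue makeup. The sum of 40 seed coat loci (flavonoid synthesis) was 218 to 244 FPKM in R108, 1633 to 1798 in hsfa9-1 and 1862 to 2282 in hsfa9-2, with 2 of the loci at 0 throughout. Its members went both ways, with 10 higher and 7 lower of 19 tested in hsfa9-1 (median log2 change 0.28) and 9 higher and 7 lower in hsfa9-2 (median 0.35). The shares higher were 52.6% and 47.4%, beside 27.6% and 25.8% of all tested loci. The shares lower were 36.8% in each, beside 31.9% and 36.5%. The sum of 21 embryo reserve loci was 21393 to 24313, 14946 to 20486 and 24793 to 28236 FPKM, with none at 0 throughout. Of 19 tested, 6 were higher and 7 lower in hsfa9-1 (median −0.26), and 12 were higher and 4 lower in hsfa9-2 (median 0.77). As shares, 31.6% and 63.2% were higher and 36.8% and 21.1% lower, beside the same shares of all tested loci. These are whole seeds in bulk, so fewer cells of a type and less RNA per cell cannot be told apart, and the part of tissue makeup in what follows was not tested.

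Ribosomal protein transcripts were lower in both mutants at many loci, by small amounts. In hsfa9-1, 117 of 299 tested members fell (39.1%) and 24 rose (8.03%), while 31.9% of all 17508 tested loci fell and 27.6% rose (limma, adjusted p under 0.05), or 59.5% in either direction. In hsfa9-2, 148 fell (49.5%) and 28 rose (9.36%), against 36.5% and 25.8% of all tested loci, or 62.3% in either direction. The members' median log2 change was −0.19 in hsfa9-1 and −0.25 in hsfa9-2, beside −0.04 and −0.10 over all tested loci. In both mutants 106 members fell and 19 rose, where the background is 30% and 23.4% of tested loci, none moved in opposite directions and 107 were called in neither. Both comparisons use the same R108 libraries, so these joint counts are not independent.

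These changes were small beside those of the tested loci as a whole. The median absolute log2 change of the members was 0.26 in hsfa9-1 and 0.31 in hsfa9-2, beside 0.39 and 0.42 over all tested loci. An absolute log2 change of at least 1, called or not, was found at 4 members in each mutant (1.34%), of which 3 in hsfa9-1 and 4 in hsfa9-2 were called, against 16.2% and 17.4% of all tested loci. All libraries of hsfa9-1 lay below all of R108 at 139 members and above at 40, where 36.1% and 31% of all tested loci did so. The same counts for hsfa9-2 were 144 and 30, against 38.6% and 27.8% of all tested loci. With each library centred on its median locus, which moves all changes up by 0.07 and 0.12, the split was 39 higher and 90 lower in hsfa9-1 and 44 higher and 93 lower in hsfa9-2. The shares lower were then 30.1% and 31.1%, close to the 27.9% and 29.0% of all tested loci, while the shares higher were 13.04% and 14.7% against 31.6% and 32.2%. The members' medians after centring were −0.12 and −0.13, beside 0.03 in each over all tested loci.

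Taken as one pool, the 341 loci held a smaller share of all FPKM in the mutants. That share was 5.49% ± 0.125 (SD, n = 3) in R108, 5.04% ± 0.0321 in hsfa9-1 and 4.77% ± 0.0998 in hsfa9-2, and the 3 genotypes did not overlap. The cytosolic loci made up most of the pool and carried most of the difference, with 4.31% ± 0.126 in R108, 3.88% ± 0.0121 in hsfa9-1 and 3.67% ± 0.141 in hsfa9-2. Mitochondrial loci held 0.233% ± 0.00501, 0.221% ± 0.00179 and 0.214% ± 0.0074. Plastid loci held 0.314% ± 0.00727, 0.330% ± 0.0216 and 0.309% ± 0.0211, with overlap of all genotypes.

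**Figure D1:**
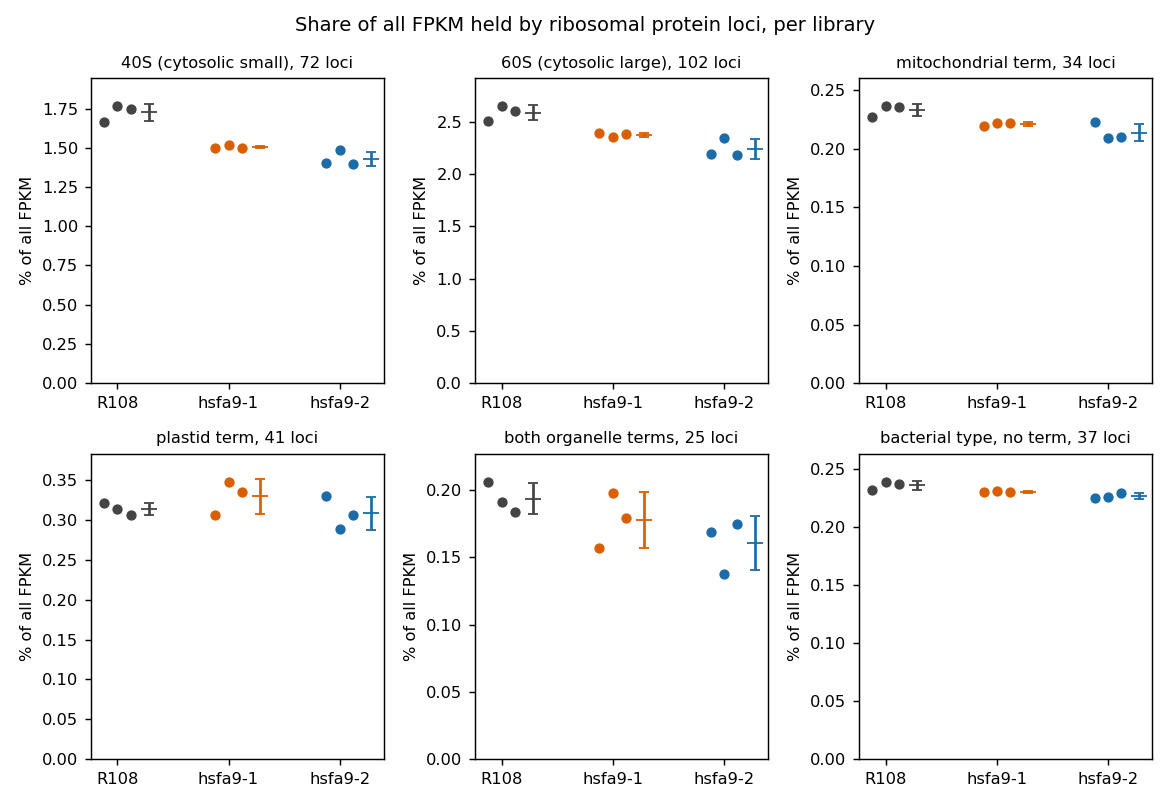
Share of all FPKM (percent, vertical axis) held by ribosomal protein loci of each class in each of the 9 libraries, grouped by genotype. Points are libraries and bars are the mean ± SD of 3. The 40S and 60S shares of every mutant library lie below all R108 libraries, and the plastid shares overlap.

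Members were placed in classes by the KEGG protein name and the cellular component term deposited with each locus, a scheme adopted after the annotation was seen. It gave 72 loci of the 40S subunit, 102 of the 60S subunit, 34 mitochondrial and 41 plastid loci. A further 25 bacterial-type loci carried terms of both organelles, 37 carried neither, and 30 members had no ribosomal protein name. Words of the description alone placed 36 loci as 40S, 94 as 60S, 6 as mitochondrial and 1 as plastid. By these words the median log2 changes in hsfa9-1 and hsfa9-2 were −0.32 and −0.29 for the 40S class, −0.18 and −0.20 for the 60S class and −0.47 and −0.52 for the mitochondrial class. The single plastid locus by words, a plastid-specific 30S protein (Medtr6g090520), had 190.5, 225 and 202 FPKM in R108, 242.5, 214 and 241 in hsfa9-1 and 247, 257 and 249.6 in hsfa9-2. Its log2 change of 0.18 in hsfa9-1 was not called (limma adjusted p = 0.0661), and 0.29 in hsfa9-2 was (adjusted p = 0.0067). The hsfa9-1 change was called after centring (0.25), when rescaled (0.22) and without R108 replicate 2 (0.24) or hsfa9-1 replicate 2 (0.24).

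**Figure D2:**
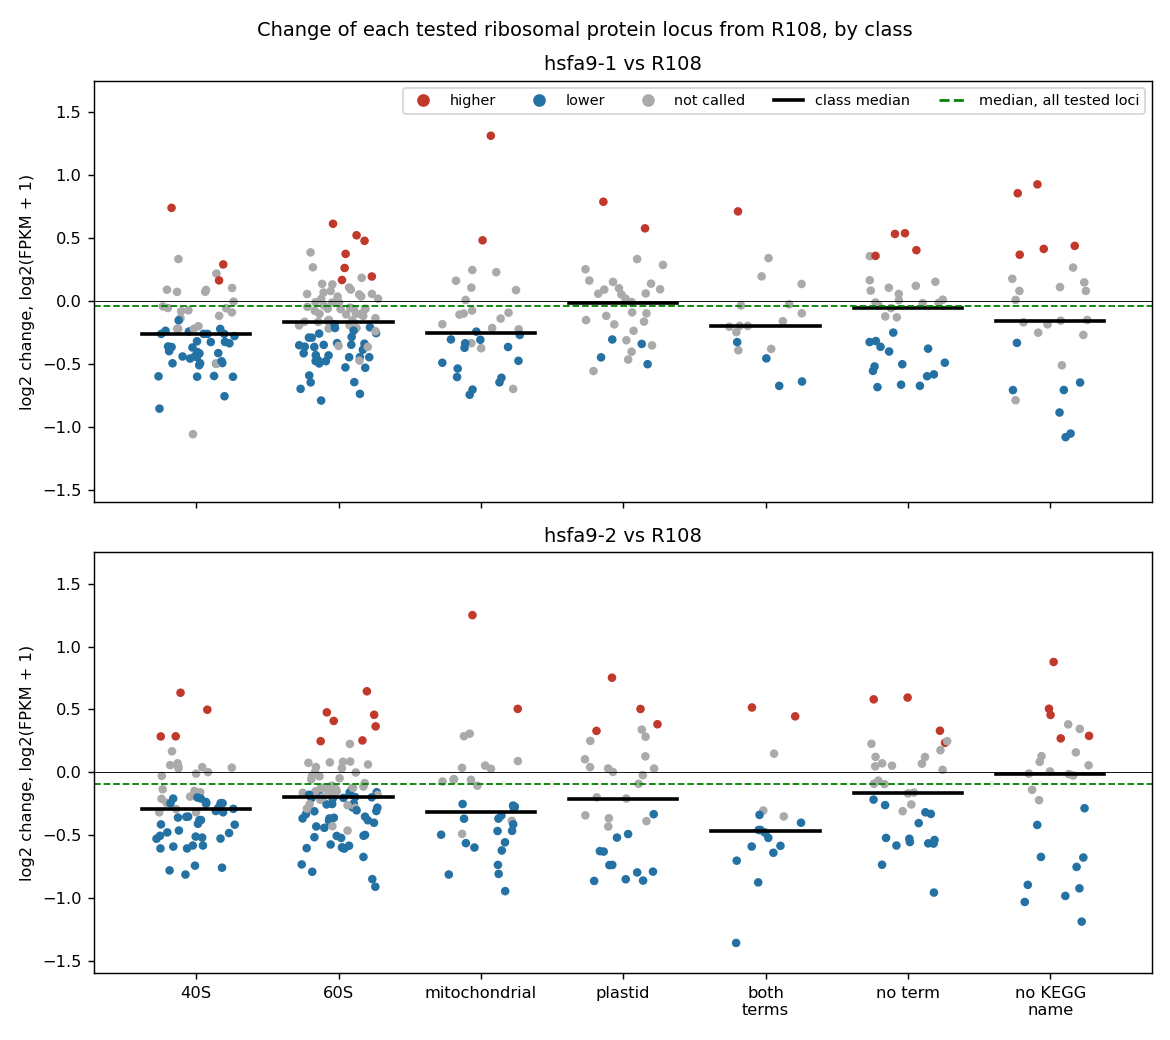
Log2 change of each tested ribosomal protein locus against R108 (vertical axis) by class, with hsfa9-1 and hsfa9-2 in separate panels. Red points rose, blue points fell and grey points were not called (limma adjusted p of 0.05 or more). The black bar is the class median and the green dashed line the median of all 17508 tested loci. The 40S, 60S and mitochondrial medians lie below that line in both panels, and the plastid median lies above it in hsfa9-1 only.

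The 40S subunit reads the messenger RNA, and most of its transcripts that changed were lower in the mutants. Of 61 tested 40S loci, 36 fell, 3 rose and 22 were not called in hsfa9-1, with a median log2 change of −0.26. In hsfa9-2, 37 fell, 4 rose and 20 were not called, with a median of −0.29, and 31 fell without hsfa9-2 replicate 1. As shares, 59.0% and 60.7% fell, beside 31.9% and 36.5% of all tested loci, and 4.92% and 6.56% rose, beside 27.6% and 25.8%. Across the fits with a library left out, 27 to 38 fell in hsfa9-1 and 28 to 39 in hsfa9-2. After median centring the counts were 26 lower and 6 higher in hsfa9-1, and 24 lower and 7 higher in hsfa9-2, or 42.6% and 39.3% lower against 27.9% and 29.0% of all tested loci. The centred shares higher were 9.84% and 11.5%, against 31.6% and 32.2%. For 5 of the 22 proteins with a tested locus, every tested locus fell in both mutants. They were S3Ae, S15e, S19e, S20e and S24e, the last with only 1 tested locus. Counted by locus, 34 of the 61 fell in both mutants, while 30% of all tested loci did so.

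The S13e protein, a small subunit component, showed one of the larger falls among abundant loci. Medtr4g024550 had 719, 908 and 820.3 FPKM in R108, 571, 479 and 558 in hsfa9-1 and 511, 630.5 and 553 in hsfa9-2. Every mutant library lay below every R108 library, and the mutants overlapped each other. The log2 changes were −0.60 (SE 0.109, limma adjusted p = 0.000767) and −0.53 (SE 0.109, adjusted p = 0.00171). A second S13e locus, Medtr5g011910, was far less abundant, at 5.03 to 5.53 FPKM in R108, 2.08 to 2.95 in hsfa9-1 and 2.35 to 3.08 in hsfa9-2. It fell by 0.86 and 0.76 on the log2 scale.

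Several other 40S loci fell by similar amounts. The S15Ae locus Medtr8g101910 had 66.3, 86.7 and 78.4 FPKM in R108, 47.2, 41.8 and 46.0 in hsfa9-1 and 41.8, 49.5 and 45.3 in hsfa9-2. The mutant values sat close together and under the lowest R108 value, with log2 changes of −0.76 and −0.74 (limma adjusted p = 9.32e-05 and 0.000101). The S25e locus Medtr4g070600 had 652, 738 and 717.5 FPKM in R108, 528, 501 and 547 in hsfa9-1 and 522, 531 and 526 in hsfa9-2, and fell by 0.42 and 0.41 on the log2 scale. The most abundant 40S locus, Medtr1g081410 (S24e), had 943, 1042 and 1036 FPKM in R108, 803, 895 and 853 in hsfa9-1 and 775, 811 and 884 in hsfa9-2. All mutant libraries lay below R108, and the change was smaller, at −0.24 (SE 0.0748, adjusted p = 0.0168) and −0.29 (adjusted p = 0.00629). Both calls ended after median centring, and the hsfa9-1 call also ended without R108 replicate 2 (−0.22), R108 replicate 3 (−0.22) or hsfa9-1 replicate 1 (−0.20).

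The protein S20e had 4 tested loci, and all fell in both mutants. Medtr4g034030 had 140.4, 175 and 173 FPKM in R108, 106, 111 and 103 in hsfa9-1 and 76.9, 95.9 and 105 in hsfa9-2, with log2 changes of −0.60 and −0.81. Medtr0157s0070 had 107.6, 126 and 126 FPKM in R108, 73.6, 81.2 and 80.6 in hsfa9-1 and 67.2, 68.5 and 71.9 in hsfa9-2, with log2 changes of −0.60 and −0.78. All mutant libraries of both loci lay below R108. Medtr1g091057 and Medtr2g085090 carried identical values in every library, so they stand for 1 measurement, and it fell by 0.50 and 0.58. The authors' quantification may have split the reads of such copies between loci, so single copies of near-identical genes are uncertain here and elsewhere.

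Few 40S loci rose. S27a is made as a fusion with ubiquitin, from which it is cut. Its locus Medtr5g033960 had 184, 179.8 and 174 FPKM in R108, 205, 217 and 239 in hsfa9-1 and 209, 243 and 207 in hsfa9-2. All mutant libraries were above R108, with log2 changes of 0.29 in each (limma adjusted p = 0.00939 and 0.00967). The other 40S locus that rose in both mutants was a minor copy of S28e, Medtr8g089765, with 17.5, 18.0 and 19.0 FPKM in R108, 34.1, 30.5 and 28.7 in hsfa9-1 and 30.5, 24.95 and 31.1 in hsfa9-2. It rose by 0.74 and 0.63 on the log2 scale (adjusted p = 7.27e-05 and 0.00021), with all mutant libraries above R108.

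The 60S subunit joins amino acids into protein, and its called loci were also mostly lower. Of 91 tested 60S loci, 36 fell, 7 rose and 48 were not called in hsfa9-1, with a median log2 change of −0.17. In hsfa9-2, 44 fell, 7 rose and 40 were not called, with a median of −0.20, and 33 fell without hsfa9-2 replicate 1. As shares, 39.6% and 48.4% fell, beside 31.9% and 36.5% of all tested loci, and 7.69% rose in each, beside 27.6% and 25.8%. Across the fits with a library left out, 26 to 40 fell in hsfa9-1 and 30 to 52 in hsfa9-2. After median centring 28 were lower and 11 higher in hsfa9-1, and 27 were lower and 11 higher in hsfa9-2, or 30.8% and 29.7% lower against 27.9% and 29.0% of all tested loci. The shares lower were thus near those of all tested loci after centring, while the shares higher were 12.1% in each, against 31.6% and 32.2%. All tested loci fell in both mutants for 3 of 33 proteins, L19e, L27e and L35Ae. Counted by locus, 32 of the 91 fell in both mutants, while 30% of all tested loci did so.

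The 60S loci with the largest falls shared by both mutants had levels below the 60S median. The L35Ae locus Medtr0699s0020 had 66.7, 77.3 and 74.8 FPKM in R108, 42.0, 38.4 and 44.6 in hsfa9-1 and 41.4, 38.3 and 40.2 in hsfa9-2. The mutants stood well below R108, by −0.79 (SE 0.0775, limma adjusted p = 9.49e-06) and −0.85 (adjusted p = 5.13e-06). L10a forms a mobile stalk of the large subunit, and its locus Medtr5g012930 had 71.1, 68.9 and 77.6 FPKM in R108, 49.1, 45.1 and 43.9 in hsfa9-1 and 42.3, 43.1 and 44.3 in hsfa9-2. It fell by 0.65 and 0.73 on the log2 scale, with all mutant libraries below R108.

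The most abundant ribosomal protein locus of all, Medtr1g087910 (L19e), moved little. It had 1122, 1174 and 1070.5 FPKM in R108, 999, 896 and 1017 in hsfa9-1 and 885, 917 and 971 in hsfa9-2. The mutants were below R108 in every library, with log2 changes of −0.21 (limma adjusted p = 0.0284) and −0.28 (adjusted p = 0.0065). Both calls ended after median centring (−0.14 and −0.15). The hsfa9-1 call also ended without R108 replicate 1 (−0.21), R108 replicate 2 (−0.18) or hsfa9-1 replicate 2 (−0.15), and when rescaled without the 100 most abundant loci (−0.17). The second L19e locus, Medtr7g108955, had 850, 937 and 880.1 FPKM in R108, 760.3, 729 and 772.5 in hsfa9-1 and 692.5, 724 and 733 in hsfa9-2. It lay below R108 in all mutant libraries, by −0.24 and −0.31, and the hsfa9-1 call ended after centring (−0.17).

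The acidic proteins P0, P1 and P2 form the stalk that recruits translation factors to the 60S subunit. Of 15 such loci, looked at after their values were seen, 11 were tested. In hsfa9-1, 4 fell, 7 were not called and none rose, with log2 changes from −0.59 to 0.09. In hsfa9-2, 5 fell, 6 were not called and none rose, with log2 changes from −0.61 to −0.09. The shares that fell, 36.4% and 45.5%, are near the 31.9% and 36.5% of all tested loci.

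A few 60S loci went the other way. L5 carries the 5S ribosomal RNA into the large subunit. Its minor copy Medtr3g118030 had 36.2, 34.1 and 36.9 FPKM in R108, 53.4, 54.2 and 58.2 in hsfa9-1 and 43.7, 52.1 and 53.1 in hsfa9-2. It rose by 0.61 and 0.46 on the log2 scale (limma adjusted p = 8.44e-05 and 0.000624), with all mutant libraries above R108. Medtr1g100960 (L36e), named after its values were seen, had 296, 361.5 and 370.5 FPKM in R108, 449.6, 418 and 461 in hsfa9-1 and 431, 584 and 426 in hsfa9-2. It rose by 0.48 in hsfa9-2 (adjusted p = 0.00738). Its rise of 0.37 in hsfa9-1 (adjusted p = 0.0257) ended without R108 replicate 1 (0.27), hsfa9-1 replicate 1 (0.36) or hsfa9-1 replicate 3 (0.35), and with no filter on low values (adjusted p = 0.0568). Medtr7g027235 (L7Ae), also chosen after its values were seen, had 287, 325 and 325 FPKM in R108, 383, 368 and 373 in hsfa9-1 and 338, 393 and 383 in hsfa9-2. Its rises of 0.26 and 0.25 were called, the second not without R108 replicate 1 (0.19) or hsfa9-2 replicate 2 (0.21).

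**Figure D3:**
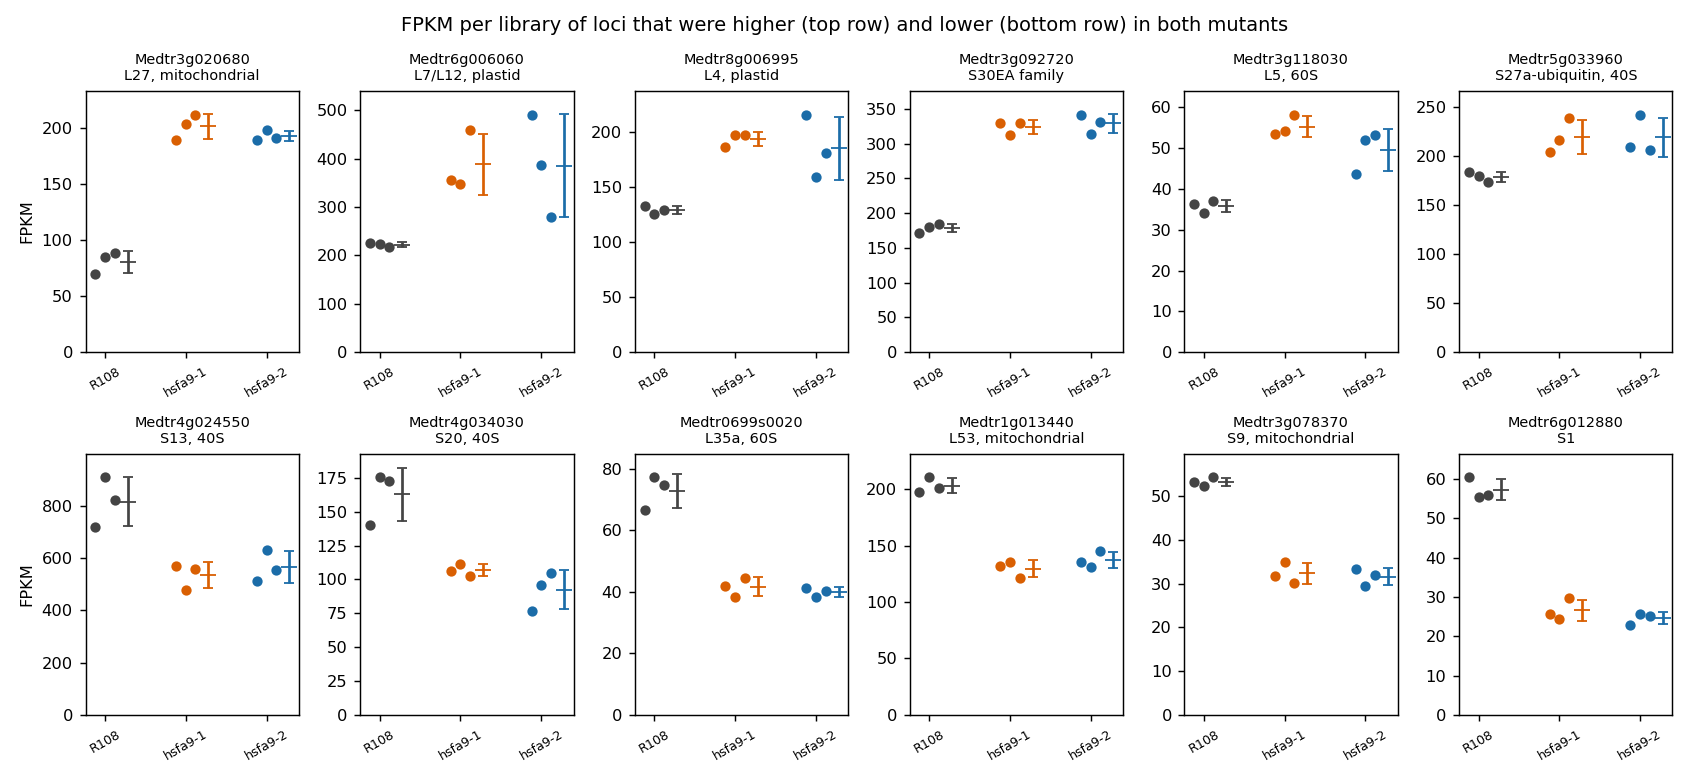
FPKM (vertical axes) of 12 ribosomal protein loci in each of the 9 libraries, by genotype, with points for libraries and bars for the mean ± SD of 3. The loci of the upper row rose in both mutants and those of the lower row fell in both. The mitochondrial L27 locus Medtr3g020680 goes from 69.5 to 88.1 FPKM in R108 to 189 to 212 in the mutants.

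The level of a cytosolic locus went with the size of its fall in hsfa9-1. In R108 the tested 40S loci ranged from 5.21 to 1007 FPKM with a median of 157, the 60S loci from 1.48 to 1122 with a median of 233, and 109 of the 152 cytosolic loci had at least 100 FPKM. With these 152 loci ranked by mean FPKM over all libraries, the 51 lowest had a median log2 change of −0.33 in hsfa9-1, the middle 50 had −0.21 and the 51 highest had −0.15. In hsfa9-2 the medians were −0.29, −0.23 and −0.20. These are descriptions of single loci and carry no test.

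Added up by protein, the copies of a gene were lower in sum for most cytosolic and mitochondrial proteins. Among proteins with at least 1 tested locus, the summed FPKM was lower in both mutants for 20 of 22 of the 40S subunit and higher in both for 1. It was lower for 25 and higher for 3 of 33 of the 60S subunit, lower for 17 and higher for 7 of 24 mitochondrial proteins, and lower for 11 and higher for 10 of 27 plastid proteins. Instead of sums, the median log2 change over a protein's tested loci changed sign under another scaling for 1 and 2 of the 22 proteins of the 40S subunit in hsfa9-1 and hsfa9-2. It did so for 4 and 5 of the 33 of the 60S subunit, 0 and 2 of the 24 mitochondrial and 1 and 2 of the 27 plastid proteins. No test was made of the sums or of these medians.

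Copies of 2 cytosolic proteins, S28e and L18Ae, were called in opposite directions in both mutants. In hsfa9-2 alone, copies of S18e, L15e, L32e, L5e and L7e were also called in each direction. Copies of L18e were so called in hsfa9-1 alone. For S28e the main copy, Medtr6g013210, had 705.5, 892 and 761 FPKM in R108, 618, 583 and 682 in hsfa9-1 and 555, 670.5 and 548 in hsfa9-2, while the minor copy Medtr8g089765 described above rose. The main copy was below R108 in all mutant libraries, by −0.32 (limma adjusted p = 0.0257) and −0.41 (adjusted p = 0.00729). Its hsfa9-1 call ended without R108 replicate 2 (−0.23), hsfa9-1 replicate 1 (−0.31) or hsfa9-1 replicate 2 (−0.27), after centring (−0.25) and with no filter on low values. Another copy, Medtr4g081180, had 54.1, 69.8 and 66.9 FPKM in R108, 86.5, 80.2 and 73.8 in hsfa9-1 and 76.1, 109 and 87.1 in hsfa9-2. All its mutant values were above R108, and 0.50 in hsfa9-2 was called (adjusted p = 0.00797) while 0.33 in hsfa9-1 was not (adjusted p = 0.0524), though it was under 7 alternatives. The fourth copy, Medtr6g013410, stayed between 3.24 and 7.52 FPKM and was not called.

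For L18Ae, Medtr5g091120 had 294, 309 and 304 FPKM in R108, 430.2, 414 and 462 in hsfa9-1 and 403, 419 and 384 in hsfa9-2. It stood above R108 in every mutant library, by 0.52 (SE 0.0626, limma adjusted p = 4.17e-05) and 0.41 (adjusted p = 0.000227). Medtr2g098000 had 154.5, 176 and 176 FPKM in R108, 126, 119 and 156 in hsfa9-1 and 122, 126 and 107.7 in hsfa9-2. It fell by 0.51 in hsfa9-2, all of whose libraries lay below R108. Its fall of 0.34 in hsfa9-1, where 1 library overlapped R108, ended without R108 replicate 2 (−0.31), R108 replicate 3 (−0.31), hsfa9-1 replicate 1 (−0.30) or hsfa9-1 replicate 2 (−0.26). The most abundant copy, Medtr5g091135, was not called in either mutant (−0.06 and −0.11), with 481, 501 and 525 FPKM in R108, 476, 461 and 507 in hsfa9-1 and 464, 475 and 459 in hsfa9-2. The summed L18Ae level was 976 ± 38.8, 1053 ± 67.3 and 988 ± 35.3 FPKM (SD, n = 3).

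**Figure D4:**
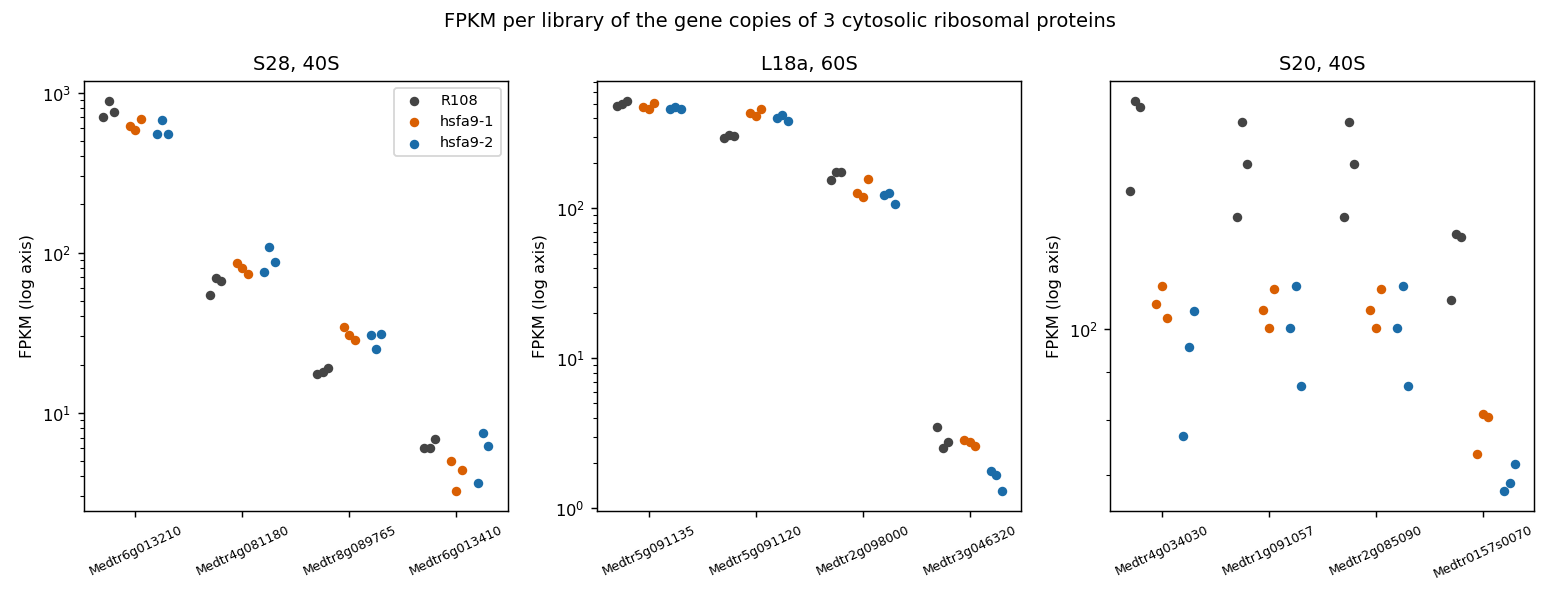
FPKM (log axis) of each tested copy of the proteins S28, L18a and S20 in the 9 libraries, by genotype. Points are libraries, and each locus has its own position on the horizontal axis. Within S28 and L18a, 1 copy rises and another falls in both mutants, and all S20 copies fall.

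Most called mitochondrial loci fell, and a mitochondrial locus had the largest log2 rise of all members in each mutant. Of 34 tested mitochondrial loci, 15 fell, 2 rose and 17 were not called in hsfa9-1, with a median log2 change of −0.26. In hsfa9-2, 19 fell, 2 rose and 13 were not called, with a median of −0.32, and 17 fell without hsfa9-2 replicate 1. As shares, 44.1% and 55.9% fell, beside 31.9% and 36.5% of all tested loci, and 5.88% rose in each, beside 27.6% and 25.8%. Across the fits with a library left out, 11 to 19 fell in hsfa9-1 and 15 to 19 in hsfa9-2. After median centring 13 were lower and 4 higher in hsfa9-1, and 12 were lower and 5 higher in hsfa9-2, or 38.2% and 35.3% lower against 27.9% and 29.0% of all tested loci. The centred shares higher were 11.8% and 14.7%, against 31.6% and 32.2%. R108 levels ran from 2.87 to 501 FPKM with a median of 48.1.

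L27 lies near the peptidyl transferase centre of the bacterial ribosome. The more abundant of 2 mitochondrial L27 loci, Medtr3g020680, had 69.5, 84.5 and 88.1 FPKM in R108, 189, 203 and 212 in hsfa9-1 and 189, 198 and 190.55 in hsfa9-2. No mutant library came near R108, and the mutants overlapped. Mean FPKM was 2.50 times that of R108 in hsfa9-1 and 2.39 times in hsfa9-2, with log2 changes of 1.31 (SE 0.0870, limma adjusted p = 5.13e-07) and 1.25 (SE 0.0870, adjusted p = 6.92e-07). The less abundant L27 locus went the other way in hsfa9-2, where it was called lower, and was not called in hsfa9-1. The other mitochondrial rise was at Medtr3g058430, encoding S10 of the small subunit, with 76.5, 88.9 and 94.1 FPKM in R108, 122, 117 and 124 in hsfa9-1 and 129.5, 118 and 121 in hsfa9-2. It rose by 0.48 and 0.51 on the log2 scale, with all mutant libraries above R108.

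Proteins of both mitochondrial subunits were among the falls. S13 sits in the head of the bacterial small subunit. The S13 locus Medtr4g081120 had 17.6, 16.8 and 19.4 FPKM in R108, 9.47, 11.7 and 9.8 in hsfa9-1 and 8.76, 8.44 and 9.28 in hsfa9-2. It fell by 0.75 and 0.95 on the log2 scale (limma adjusted p = 6.34e-05 and 1.04e-05). The S9 locus Medtr3g078370, whose bacterial counterpart reaches the transfer RNA in the P site, had 53.2, 52.3 and 54.3 FPKM in R108, 31.7, 35.01 and 30.3 in hsfa9-1 and 33.3, 29.6 and 31.9 in hsfa9-2. The R108 values were tightly grouped and far above the mutants, and the fall was 0.71 and 0.74.

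L53 and L46 belong to the large subunit. Medtr1g013440 (L53) had 198, 210.5 and 201 FPKM in R108, 132, 136 and 121 in hsfa9-1 and 136, 131 and 145 in hsfa9-2. All mutant libraries lay below R108, by −0.65 and −0.56 (limma adjusted p = 1.18e-05 and 2.96e-05). The second L53 locus, Medtr3g113260, fell from 33.2 ± 2.86 FPKM to 21.6 ± 3.61 and 21.2 ± 1.36 (SD, n = 3), by 0.61 and 0.62. The L46 locus Medtr8g028485 had 57.4, 62.8 and 64.3 FPKM in R108, 51.0, 52.2 and 51.9 in hsfa9-1 and 47.1, 40.2 and 45.7 in hsfa9-2, and fell by 0.47 in hsfa9-2. Its fall of 0.24 in hsfa9-1 ended without R108 replicate 2 (−0.23) or R108 replicate 3 (−0.21) and after centring (−0.17). The most abundant mitochondrial locus, Medtr0059s0060 (L1), had 499.9, 488 and 516 FPKM in R108, 461, 476 and 472 in hsfa9-1 and 506, 462 and 477 in hsfa9-2, and was called in neither mutant (−0.09 and −0.06).

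Most plastid ribosomal proteins were not called in hsfa9-1. Of 33 tested plastid loci, 4 fell, 2 rose and 27 were not called in hsfa9-1, with a median log2 change of −0.01 that turned to 0.06 after centring. In hsfa9-2, 12 fell, 4 rose and 17 were not called, with a median of −0.21. As shares, 12.1% and 36.4% fell, beside 31.9% and 36.5% of all tested loci, and 6.06% and 12.1% rose, beside 27.6% and 25.8%. Centring left 1 lower and 4 higher in hsfa9-1, and 6 lower and 6 higher in hsfa9-2. Single libraries weighed on these counts. The 4 falls in hsfa9-1 became 1 without hsfa9-1 replicate 1, 2 without hsfa9-1 replicate 3, R108 replicate 1 or R108 replicate 3, 6 without hsfa9-2 replicate 2 and 7 without hsfa9-1 replicate 2. The 12 falls in hsfa9-2 became 7 without hsfa9-2 replicate 2 and 8 without R108 replicate 1 or R108 replicate 2. Of 18 tested loci with terms of both organelles, 4 fell and 1 rose in hsfa9-1 (median −0.20), and 12 fell and 2 rose in hsfa9-2 (median −0.47). These 12 falls became 5 without hsfa9-2 replicate 2, 6 without R108 replicate 1 and 8 without hsfa9-2 replicate 1. Of the loci with both terms, 22.2% and 66.7% fell in hsfa9-1 and hsfa9-2, beside 31.9% and 36.5% of all tested loci. Rises were 5.56% and 11.1%, beside 27.6% and 25.8%.

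The loci with a plastid term, those with both terms included, were divided by protein name. Some carry the name of a protein that legume plastid genomes encode, and the others are nuclear-encoded in legumes. The division was made after the values were seen, so its counts are a description. It gave 49 loci with plastid-genome names, of which 34 were tested, and 17 with other names, all tested. Many of the first group have identifiers in runs, such as 8 that begin with Medtr4g05 and 5 with Medtr3g03. Some of the group also carry a mitochondrial term. Reads from the plastid genome, from the mitochondrial genome and from nuclear copies of their genes cannot be told apart here.

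Among the 34 tested loci with plastid-genome names, 6 fell, 1 rose and 27 were not called in hsfa9-1, with a median log2 change of −0.20. In hsfa9-2, 22 fell, 1 rose and 11 were not called, with a median of −0.51. As shares, 17.6% and 64.7% fell, beside 31.9% and 36.5% of all tested loci, and 2.94% rose in each, beside 27.6% and 25.8%. After centring 8.82% and 32.4% fell, beside 27.9% and 29.0% of all tested loci. Summed FPKM of the 34 loci and the untested ones was 2172, 1843 and 1788 in R108, 1320, 2029 and 1712 in hsfa9-1 and 1366, 1120 and 1623 in hsfa9-2. The hsfa9-2 sums were all below R108, and hsfa9-1 replicate 2 lay within the R108 range. Against the mean of R108, the median locus stood at −0.51 in hsfa9-1 replicate 1 and 0.09 in replicate 2, and at 0.15 in R108 replicate 1 and −0.11 in R108 replicate 3. The 22 falls in hsfa9-2 became 10 without hsfa9-2 replicate 2, 11 without R108 replicate 1 and after centring, 12 with no filter on low values, and 16 without hsfa9-2 replicate 1. The 6 falls in hsfa9-1 became 3 without R108 replicate 1 or hsfa9-1 replicate 1 and after centring, and 9 without hsfa9-1 replicate 2.

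Members of this group fell to different degrees. L14 lies on the face of the large subunit that meets the small one. The L14 locus Medtr2g087550 had 28.9, 29.5 and 28.8 FPKM in R108, 18.0, 24.8 and 18.5 in hsfa9-1 and 16.5, 13.9 and 16.8 in hsfa9-2. All mutant libraries were below R108, by −0.50 (SE 0.118, limma adjusted p = 0.00399) and −0.85 (adjusted p = 0.000114). The S2 locus Medtr4g051110, named after its values were seen, had 173, 155 and 140 FPKM in R108, 98.1, 148 and 123 in hsfa9-1 and 92.6, 67.9 and 97.9 in hsfa9-2. Only hsfa9-2 stood clear of R108, by −0.86 (adjusted p = 0.00105), and −0.35 in hsfa9-1 was not called (adjusted p = 0.0891) except without hsfa9-1 replicate 2 (−0.50) or hsfa9-2 replicate 2. The S15 locus Medtr4g006090, named in the same way, had 108.5, 84.6 and 82.9 FPKM in R108, 47.0, 90.1 and 55.5 in hsfa9-1 and 57.0, 36.2 and 59.4 in hsfa9-2, with log2 changes of −0.56, not called, and −0.86 (adjusted p = 0.01). The hsfa9-1 change was called without hsfa9-1 replicate 2 (−0.83) or hsfa9-2 replicate 2 and in the fit of 2 groups.

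S12 lines the decoding centre of the bacterial small subunit, and its loci in these files were of low abundance or uneven. Medtr0625s0020 had 61.8, 55.9 and 45.4 FPKM in R108, 30.6, 40.6 and 47.8 in hsfa9-1 and 38.9, 29.1 and 31.0 in hsfa9-2. It fell by 0.70 in hsfa9-2 (limma adjusted p = 0.00417). Its fall of 0.46 in hsfa9-1 overlapped R108, and the call ended under 8 alternatives, among them leaving out R108 replicate 1 (−0.36) or hsfa9-1 replicate 1 (−0.29). Medtr7g055840 had 4.24, 4.32 and 7.46 FPKM in R108, 7.12, 3.29 and 4.52 in hsfa9-1 and 3.61, 0 and 2.04 in hsfa9-2. The change of −1.36 in hsfa9-2 was called (adjusted p = 0.0295), but it was −0.72 and not called without hsfa9-2 replicate 2, and its call also ended without R108 replicate 3 (−1.13), with a pseudocount of 0.1 (−2.50, adjusted p = 0.0653) and with no filter (adjusted p = 0.0702). In the opposite direction, Medtr0082s0040 had 1.49, 1.13 and 0.88 FPKM in R108, 2.82, 2.38 and 2.4 in hsfa9-1 and 1.93, 2.08 and 1.79 in hsfa9-2, and rose by 0.71 and 0.45. The hsfa9-2 rise ended without R108 replicate 3 (0.35). Medtr7g106780 (S19) had 14.3, 16.3 and 21.03 FPKM in R108, 8.37, 11.6 and 11.2 in hsfa9-1 and 12.2, 11.7 and 14.2 in hsfa9-2. It fell by 0.68 in hsfa9-1, and its fall of 0.40 in hsfa9-2 was lost under 7 alternatives, with −0.26 without R108 replicate 3.

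The 17 tested loci with other names had medians above 0. In hsfa9-1, 2 rose, 2 fell and 13 were not called, with a median log2 change of 0.10, and in hsfa9-2 5 rose, 2 fell and 10 were not called, with a median of 0.13. Rises were thus 11.8% and 29.4%, beside 27.6% and 25.8% of all tested loci, and falls were 11.8% in each, beside 31.9% and 36.5%. After centring 6 rose and 1 fell in hsfa9-1, and 8 rose and 1 fell in hsfa9-2. The centred rises were 35.3% and 47.1%, beside 31.6% and 32.2% of all tested loci. Summed FPKM of the 17 loci was 2701, 3041 and 2935 in R108, 2999, 3014 and 3218 in hsfa9-1 and 3348, 3064 and 3028 in hsfa9-2, with overlap. The difference between the groups of names was not tested.

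L7/L12 forms the stalk of bacterial-type large subunits, which recruits translation factors. Its plastid locus Medtr6g006060 had 226, 224 and 217 FPKM in R108, 356, 348 and 459.8 in hsfa9-1 and 491, 386 and 278 in hsfa9-2. All mutant libraries were above R108, though they spread widely, and the log2 changes were 0.79 (SE 0.176, limma adjusted p = 0.00292) and 0.75 (SE 0.176, adjusted p = 0.00365). L4 lines the tunnel through which the new protein leaves. Medtr8g006995 (L4) had 133, 126 and 129.6 FPKM in R108, 187, 198 and 198 in hsfa9-1 and 216, 159.8 and 181 in hsfa9-2, and rose by 0.58 and 0.50, with all mutant libraries above R108. Loci of the same names with no organelle term did not rise. Of 5 for L7/L12, 3 fell in hsfa9-1 and 2 in hsfa9-2, and the 1 for L4 fell in both.

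The most abundant plastid loci moved in different directions. Medtr1g110750 (L15) had 272, 307 and 303 FPKM in R108, 326, 318 and 325 in hsfa9-1 and 347, 367 and 395 in hsfa9-2. It rose by 0.33 in hsfa9-2 (limma adjusted p = 0.0018), and 0.14 in hsfa9-1 was not called (adjusted p = 0.109) but was after centring (0.21) and when rescaled (0.18). Medtr2g101770 (S17) had 279, 335 and 324 FPKM in R108, 252 in all hsfa9-1 libraries and 242.5, 291 and 214 in hsfa9-2. It fell by 0.31 and 0.33, and both calls ended after centring (−0.24 and −0.21) and without R108 replicate 2 (−0.26 and −0.28) or R108 replicate 3 (−0.28 and −0.31). The hsfa9-1 call also ended without any of its own libraries (−0.31 each) and with no filter, and the hsfa9-2 call without hsfa9-2 replicate 3 (−0.23). Medtr1g096460 (L21), with terms of both organelles and the most abundant organellar locus, had 631, 701 and 668 FPKM in R108, 492, 546 and 557 in hsfa9-1 and 564, 491 and 527 in hsfa9-2, and fell by 0.33 and 0.34, with all mutant libraries below R108.

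Green tissue markers are given beside the plastid loci. The sum of 116 loci of photosystems, light-harvesting proteins and the oxygen-evolving complex was 3598 to 3897 FPKM in R108, 2310 to 3086 in hsfa9-1 and 1973 to 2327 in hsfa9-2, with 2 of them at 0 throughout. Of the 79 tested, 28 fell and 18 rose in hsfa9-1, and 39 fell and 16 rose in hsfa9-2. The shares that fell were 35.4% and 49.4%, beside 31.9% and 36.5% of all tested loci. Their part in the plastid results was not tested.

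**Figure D5:**
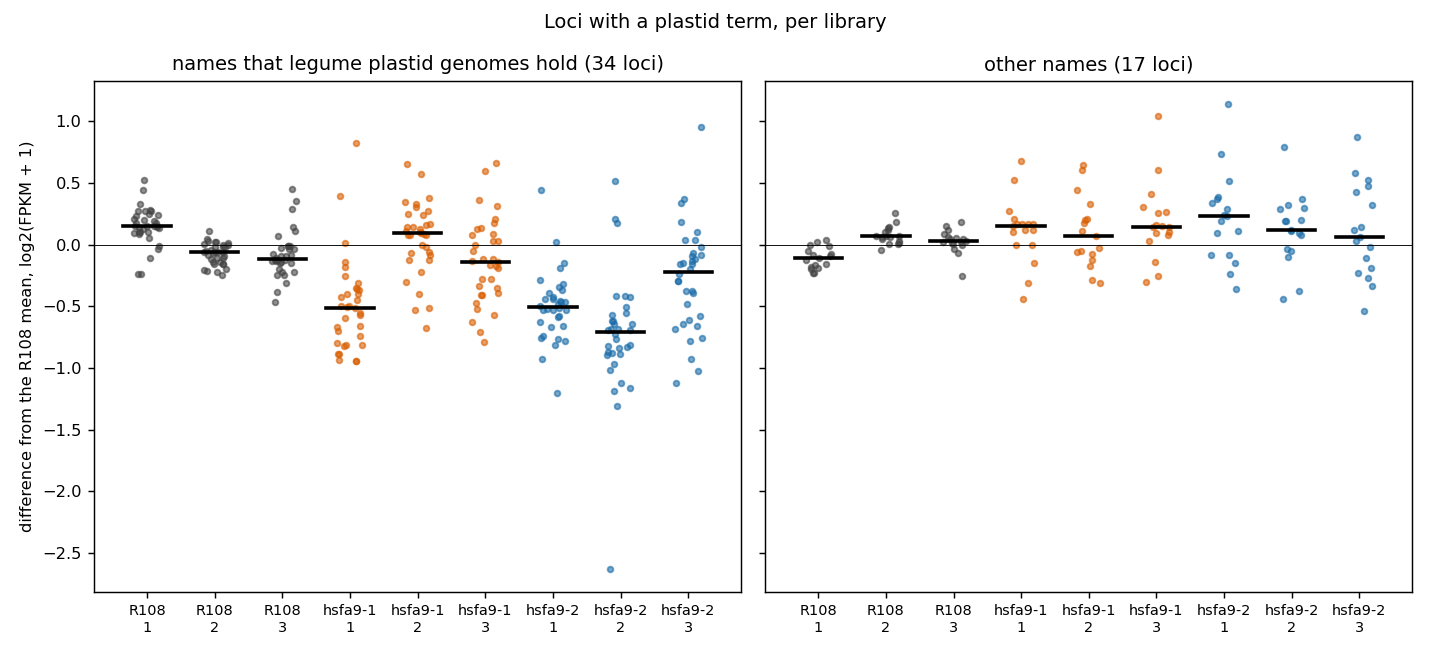
Log2 difference of each tested locus from the R108 mean (vertical axis) in each of the 9 libraries, for the 34 loci with plastid-genome names and the 17 with other names. Points are loci and the black line is the median in the library. In the first group the medians are −0.50, −0.71 and −0.22 in hsfa9-2 and −0.51, 0.09 and −0.14 in hsfa9-1, and in the second group all mutant medians are above 0.

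Bacterial-type loci with no organelle term also went both ways. Of 35 tested, 15 fell and 4 rose in hsfa9-1 (median −0.06), and 14 fell and 4 rose in hsfa9-2 (median −0.16). As shares, 42.9% and 40% fell, beside 31.9% and 36.5% of all tested loci, and 11.4% rose in each, beside 27.6% and 25.8%. After centring 13 were lower and 5 higher in hsfa9-1, and 11 were lower and 6 higher in hsfa9-2. The centred falls were 37.1% and 31.4%, beside 27.9% and 29.0% of all tested loci. Medtr8g090185 (L29) had 169.7, 187 and 189 FPKM in R108, 263, 269.8 and 257 in hsfa9-1 and 249.6, 287.5 and 289.5 in hsfa9-2, and rose by 0.53 and 0.59 (limma adjusted p = 0.000107 and 4.52e-05). Medtr4g131540, an L10 family member, rose by 0.54 and 0.58, from 82.3 ± 6.4 FPKM to 119.8 ± 4.35 and 124.5 ± 21.3 (SD, n = 3). Medtr4g114610 (L36) had 41.2, 44.9 and 43.9 FPKM in R108, 27.6, 23.9 and 29.6 in hsfa9-1 and 23.2, 26.8 and 26.9 in hsfa9-2, and fell by 0.67 and 0.74. Medtr1g077690 (L6) had 8.14, 7.53 and 10.8 FPKM in R108, 4.55, 6.2 and 4.54 in hsfa9-1 and 5.03, 4.02 and 3.16 in hsfa9-2, and fell by 0.69 and 0.96. None of these 4 loci overlapped between R108 and a mutant.

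Some of the strongest changes were at members to which KEGG gives no ribosomal protein name. Of 27 tested, 7 fell and 5 rose in hsfa9-1, and 10 fell and 5 rose in hsfa9-2. As shares, 25.9% and 37.0% fell, beside 31.9% and 36.5% of all tested loci, and 18.5% rose in each, beside 27.6% and 25.8%. Medtr3g092720 is described as a sigma 54 modulation protein and S30EA ribosomal protein, a family related to bacterial factors that hold ribosomes inactive. It had 172, 180.04 and 184 FPKM in R108, 329, 313 and 330.03 in hsfa9-1 and 341, 314 and 331 in hsfa9-2. The values within each genotype were close and the mutants far above R108, with log2 changes of 0.86 (SE 0.0582, limma adjusted p = 6.16e-07) and 0.88 (adjusted p = 4.97e-07). Medtr8g103265, of the L7Ae, L30e, S12e and Gadd45 family, had 53.5, 57.5 and 51.8 FPKM in R108, 23.2, 26.9 and 26.8 in hsfa9-1 and 25.2, 27.1 and 28.6 in hsfa9-2, and fell by 1.05 and 0.98. Medtr1g085280, described as L15, rose by 0.41 and 0.46, from 8.30 ± 0.563 FPKM to 11.4 ± 0.552 and 11.8 ± 1.39 (SD, n = 3). A locus described as S1 (Medtr6g012880), which in bacteria holds messenger RNA on the small subunit, had 60.4, 55.4 and 56.0 FPKM in R108, 25.6, 24.4 and 29.7 in hsfa9-1 and 22.9, 25.7 and 25.2 in hsfa9-2. It fell by 1.08 and 1.19, with all mutant libraries below R108.

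Further members without a KEGG ribosomal protein name fell as well. Medtr6g012390 (described as 60S L34) had 84.3, 79.2 and 92.3 FPKM in R108, 51.5, 52.1 and 51.5 in hsfa9-1 and 50.8, 50.9 and 48.6 in hsfa9-2, and fell by 0.71 and 0.75. Medtr3g117570 (30S S31) had 15.7, 24.7 and 22.2 FPKM in R108, 9.08, 10.3 and 12.8 in hsfa9-1 and 9.53, 11.95 and 9.66 in hsfa9-2, and fell by 0.89 and 0.92. Medtr8g018810 (L18ae family) had 10.8, 13.4 and 13.1 FPKM in R108, 8.89, 6.21 and 10.6 in hsfa9-1 and 3.45, 8.39 and 5.7 in hsfa9-2. Its change of −1.03 in hsfa9-2 was called (limma adjusted p = 0.00447), and −0.51 in hsfa9-1 was not (adjusted p = 0.103), except in the fit of 2 groups and without hsfa9-2 replicate 1 or 2. Among named 60S loci, the low-level locus Medtr8g085740 (L32e) rose by 0.64 in hsfa9-2, from 1.48 ± 0.393 to 2.88 ± 0.602 FPKM (SD, n = 3), and 0.39 in hsfa9-1 was not called (adjusted p = 0.0538), though it was after centring (0.46) and under 6 other alternatives.

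The direct comparison of hsfa9-2 with hsfa9-1 asks whether the mutant lines differ. With 1 line per allele, a difference cannot be assigned to the insertion. Of the 299 tested members 1 was lower in hsfa9-2 and 298 were not called by limma, beside 0.628% lower, 0.491% higher and 1.12% in either direction of all tested loci. At an unadjusted p under 0.05, 27 were lower and 9 higher. The share of all tested loci under that threshold was not computed, so no lean of the members is read from these counts. The median log2 difference was −0.04 for the members and −0.05 for all tested loci. All hsfa9-2 libraries lay below all hsfa9-1 libraries at 42 members and above at 15, where 13.5% and 5.57% of all tested loci did so. The called locus was Medtr3g108030, described as 30S S11P with a plastid term. S11 lies on the platform of the bacterial small subunit. It had 11.3, 10.6 and 7.65 FPKM in R108, 8.47, 10.7 and 11.4 in hsfa9-1 and 5.95, 5.09 and 4.62 in hsfa9-2, so that only hsfa9-2 stood below the others. The difference between the mutants was −0.84 (adjusted p = 0.0331), and the changes from R108 were 0.05 (adjusted p = 0.788) and −0.79 (adjusted p = 0.00114). The called difference was lost with no filter, under the replicate block and without any of 5 libraries (R108 replicate 2, hsfa9-1 replicates 2 and 3, hsfa9-2 replicates 2 and 3).

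Genes that build ribosomes were called in each direction about as often as all tested loci. Of 111 loci described as ribosome assembly, ribosomal RNA processing or nucleolar proteins, 94 were tested. In hsfa9-1, 23 rose, 32 fell and 39 were not called, with a median log2 change of −0.004, and in hsfa9-2 20 rose, 34 fell and 40 were not called, with a median of −0.03. The shares that fell were 34.04% and 36.2%, beside 31.9% and 36.5% of all tested loci, and the shares that rose were 24.5% and 21.3%, beside 27.6% and 25.8%. Their summed FPKM was 7869 to 8155 in R108, 7392 to 7568 in hsfa9-1 and 7091 to 7464 in hsfa9-2. A pair of TLD-domain nucleolar proteins moved in opposite directions. Medtr3g095660 had 101, 80.2 and 102 FPKM in R108, 22.5, 22.9 and 21.95 in hsfa9-1 and 29.7, 20.8 and 22.1 in hsfa9-2, and fell by 2.02 and 1.93 (limma adjusted p = 4.41e-07 and 5.73e-07). Medtr8g090235 had 12.6, 11.1 and 12.1 FPKM in R108, 29.1, 32.6 and 33.5 in hsfa9-1 and 29.7, 31.5 and 30.5 in hsfa9-2, and rose by 1.34 and 1.29. Both stood clear of R108 in every mutant library.

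Other named assembly loci fell or rose in both mutants. Rlp24 takes part in the assembly of the 60S subunit in yeast, and the RLP24-like locus Medtr2g084925 had 10.5, 16.2 and 13.3 FPKM in R108, 3.48, 5.58 and 5.27 in hsfa9-1 and 2.44, 4.75 and 2.51 in hsfa9-2. It fell by 1.31 and 1.78, with all mutant libraries below R108. Nop10 belongs to the particles that make pseudouridine in ribosomal RNA, and the Nop10p-like locus Medtr8g069770 fell by 0.88 and 1.31, from 11.4 ± 4.33 FPKM to 5.46 ± 0.681 and 3.89 ± 1.29 (SD, n = 3). The ribosomal RNA processing locus Medtr8g028030 fell by 1.00 and 1.08, from 6.21 ± 0.45 to 2.60 ± 0.241 and 2.45 ± 0.688 FPKM. U3-associated proteins act in the processing of the small subunit's ribosomal RNA. The U3-associated locus Medtr4g094380 rose by 0.62 and 0.76, from 67.0 ± 5.23 to 104 ± 4.27 and 114.5 ± 12.1 FPKM, and the U3-associated-like locus Medtr4g415340 rose by 0.82 and 0.53, from 11.04 ± 0.743 to 20.2 ± 1.58 and 16.4 ± 1.27 FPKM. The gar2-like nucleolar locus Medtr7g092460 rose by 0.82 and 0.80, from 6.45 ± 0.62 to 12.2 ± 1.33 and 11.9 ± 0.618 FPKM.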

How the data were processed

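The authors deposited FPKM values with 2 decimals for 42631 transcript models of 9 libraries (3 per genotype). HISAT, HISAT2, RSEM and Bowtie2 are listed in the submitters' processing notes, and the genome build is not given in the sources used here. Per the labels' protocols, an average of 24 M reads of 50 bp was made per sample, and the depth of each library is unknown, so no counting intervals are given. FPKM was summed over the models of each locus (36 members have more than 1), and loci that reached 1 FPKM in 3 or more libraries were tested as log2(FPKM + 1). Log2 changes are differences between genotype means on this scale, which understates the change of low loci. All libraries entered 1 fit in limma 3.58.1 (R 4.3.3, statmod 1.5.0, trend and robust), with Benjamini-Hochberg adjustment over 17508 loci and a threshold of 0.05. Tested on simulated data for hsfa9-1 against R108 (17508 loci), the fit found 33% of 100 changes of 0.5 and 87% of 100 changes of 1 on the log2 scale, and called 14 unchanged loci. No other loci were changed there, whereas 59.5% of tested loci were called in hsfa9-1. The adjusted cutoff depends on that share, so these recovery rates do not carry over to the reported fit. Whether the replicates came from separate growths beyond separate plants is not stated, so p-values measure the spread between these samples.

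Members and lists were chosen with earlier results of these data known. The description placed loci in classes at first. The classes by KEGG name and cellular component, and the plastid groups by name, were added later. Named loci are the 2 most abundant per class and the 5 largest called changes without overlap per mutant and direction. Also named are the 2 largest changes shared by both mutants per class and direction, and called differences between mutants. Copies called in opposite directions in both mutants, and the 3 largest assembly changes per mutant and direction, complete the list. Loci picked once their values were known are marked as such. The alternatives were another pseudocount (0.1), no filter, median centring, rescaling without the 100 most abundant loci, fits of 2 groups, a replicate block and each library left out. Sequences and promoter motifs were not analysed here.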

Additional observations from a re-analysis of the deposited data

Results flagged for a closer look

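A single member met a preset criterion for a closer look, because its change from R108 differed between the mutants in a direct test. The S11P locus Medtr3g108030 was −0.84 on the log2 scale in hsfa9-2 relative to hsfa9-1 (limma adjusted p = 0.0331). The call ended with no filter on low values (adjusted p = 0.0877), under the replicate block (adjusted p = 0.0721) and without R108 replicate 2, hsfa9-1 replicate 2 or 3, or hsfa9-2 replicate 2 or 3. The difference stayed between −0.84 and −0.76 in all of these.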

How the results depend on the processing

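Median centring moved counts of members most, to 39 higher in hsfa9-1 and to 44 higher and 93 lower in hsfa9-2. With a library left out, hsfa9-1 had 19 to 29 higher and 93 to 126 lower, and hsfa9-2 24 to 31 higher and 112 to 146 lower. The 1 locus lower in hsfa9-2 than in hsfa9-1 became 0 with no filter and under the replicate block, and 0 to 2 with a library left out.

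For classes by words of the description, the 40S median in hsfa9-1 was −0.23 with no filter, −0.25 after centring, −0.28 rescaled, −0.26 with classes by KEGG name and −0.35 to −0.25 with a library left out. In hsfa9-2 it was −0.16 after centring and −0.32 to −0.25 with a library left out. The 60S median after centring was −0.11 in hsfa9-1 and −0.08 in hsfa9-2 (−0.18 and −0.20 as reported), and with a library left out −0.22 to −0.15 there and −0.28 to −0.18 in hsfa9-2. The mitochondrial median in hsfa9-1 was −0.26 with KEGG classes and −0.47 to −0.39 with a library left out. In hsfa9-2 it was −0.59 with a pseudocount of 0.1, −0.40 centred, −0.48 rescaled, −0.32 with KEGG classes and −0.56 to −0.45 with a library left out. The plastid value turned with KEGG classes, which hold other loci, to −0.012 in hsfa9-1 and −0.21 in hsfa9-2. It was 0.41 after centring in hsfa9-2, and with a library left out 0.12 to 0.24 in hsfa9-1 and 0.24 to 0.36 in hsfa9-2. The KEGG classes, the plastid groups and the removal of identical loci were chosen after seeing the data, and the cause of the other shifts was not tested.

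Deviations of same-numbered libraries correlated between −0.125 and 0.096, and those of different-numbered libraries between −0.101 and 0.094. No shared effect of the replicate number was thus visible. Whether same-numbered samples were grown or processed together is not stated, and these correlations cannot decide it. With the replicate number as a block, 24 members were higher and 120 lower in hsfa9-1, and 29 higher and 141 lower in hsfa9-2.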
